A study of Mus musculus with 18 samples.

Results

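Acod1, Nos2, Ptgs2, Ptges, Ch25h, Hdc and Arg2 encode enzymes that innate immune cells and activated stromal cells induce to make small-molecule mediators, and their transcripts were followed in the left ventricle (LV) and right ventricle (RV) of mouse hearts kept in the cold. The 7 genes were chosen from 34989 by name, with their changes in storage already known, so the storage values below describe them and carry no test. Hearts of 12 weeks old C57B/L6 mice (C57BL/6J in the study's methods) were flushed with HTK, a cardioplegic preservation solution, held in ice-cold HTK for 0, 4, or 8 h, and perfused ex vivo with Krebs buffer for 1 h. The 0 h controls therefore also had the HTK flush and the perfusion. The mRNA selected from total RNA of the LV and RV was then sequenced, with 3 libraries for each ventricle and storage time, 18 in all. The study's methods state that mice of both sexes and another age range were used, and the labels give no sex. An isolated heart perfused with buffer has no circulating blood, so the only leukocytes present were those the organ held.

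These enzymes act at different points of the inflammatory response. Acod1 (also Irg1) decarboxylates cis-aconitate of the TCA cycle to itaconate, which inhibits succinate dehydrogenase and is best known from activated macrophages. Ptgs2, the inducible cyclooxygenase COX-2, and Ptges, the inducible microsomal prostaglandin E synthase, act in sequence to make prostaglandin E2. Ch25h makes 25-hydroxycholesterol, which restrains sterol synthesis and is the precursor of a lymphocyte chemoattractant, Hdc makes histamine from histidine, Nos2 makes nitric oxide from arginine, and the mitochondrial arginase Arg2 breaks arginine down to ornithine and urea.

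The stretches just before the start of Acod1, Ptgs2 and Ch25h are shown because, of the 6 genes in the edgeR fit, these 3 had the largest changes at 8 h in the RV. They are RefSeq sequences of GRCm38.p6, read 5′ to 3′ along each gene and ended before the first annotated transcribed base, with matches to the motifs searched in capitals.
Acod1 chr14:103046762-103046976 (+ strand): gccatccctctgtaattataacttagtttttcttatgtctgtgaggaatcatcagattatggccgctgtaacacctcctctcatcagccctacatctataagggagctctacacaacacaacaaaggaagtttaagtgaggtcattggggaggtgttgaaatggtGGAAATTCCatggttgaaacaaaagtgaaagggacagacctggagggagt
Ptgs2 chr1:150099781-150100030 (+ strand): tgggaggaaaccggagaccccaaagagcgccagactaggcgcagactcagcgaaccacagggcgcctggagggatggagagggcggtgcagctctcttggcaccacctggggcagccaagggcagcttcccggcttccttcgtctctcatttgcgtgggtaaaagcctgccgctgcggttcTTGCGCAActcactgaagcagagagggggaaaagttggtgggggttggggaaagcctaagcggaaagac
Ch25h chr19:34475165-34475398 (- strand): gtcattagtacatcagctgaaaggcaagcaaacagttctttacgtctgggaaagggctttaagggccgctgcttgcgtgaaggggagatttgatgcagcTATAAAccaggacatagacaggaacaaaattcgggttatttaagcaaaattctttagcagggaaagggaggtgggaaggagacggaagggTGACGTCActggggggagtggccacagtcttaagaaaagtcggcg

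Over the 250 bases before the RefSeq start, on both strands, the motifs searched were the TATA box TATAAA, the cyclic AMP response element TGACGTCA, the AP-1 site TGANTCA, the C/EBP palindrome TTGCGCAA, the interferon response core (GAAA, 2 bases of any kind, GAAA), a kappaB site of 9 letters GGAAANTCC, the E-box CACGTG, and the NF-kB consensus. The 9-letter kappaB site and the NF-kB consensus can overlap each other, and the panel was chosen with the sequences in view. Acod1 held a GGAAATTCC at -85 to -77 from the start, a motif present in 1.07% of 32851 promoters, and a TATAAA at -28 to -23, past the end of the stretch printed, which 12.4% held. Ptgs2 held TTGCGCAA at -69 to -62, present in 0.164% of promoters. Ch25h held TGACGTCA at -61 to -54, present in 1.55%, and TATAAA at -151 to -146. Of the 7 genes, 5 had an entry, and those of Ptges and Hdc held none of the 8 motifs in this window. A match describes the letters and says nothing of binding.

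Acod1 was a scarce transcript in unstored hearts and a well-detected one in every stored heart. In CPM, counts scaled to library size, the 0 h LV libraries held 1.63, 0.848 and 0.806 and the 0 h RV libraries 1.87, 1.08 and 0.668. After 4 h, Acod1 was 13.3, 11.9 and 72.7 CPM in the LV and 15.1, 22.2 and 85.3 CPM in the RV. After 8 h it was 14.5, 16.2 and 114 CPM in the LV and 33.8, 42.3 and 149 CPM in the RV. Every stored library was above every 0 h library of its ventricle, as for 12.5% and 14.5% of all genes at 4 and 8 h in the LV and 15.3% and 18.2% in the RV, and replicate 3 stood far above the other 2 in all 4 stored groups. The log2 fold change against 0 h was 4.87 ± 1.10 (SE) at 4 h and 5.42 ± 1.12 at 8 h in the LV, and 5.09 ± 0.90 and 6.004 ± 0.94 in the RV (n = 3 libraries per group).

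**Figure D1:**
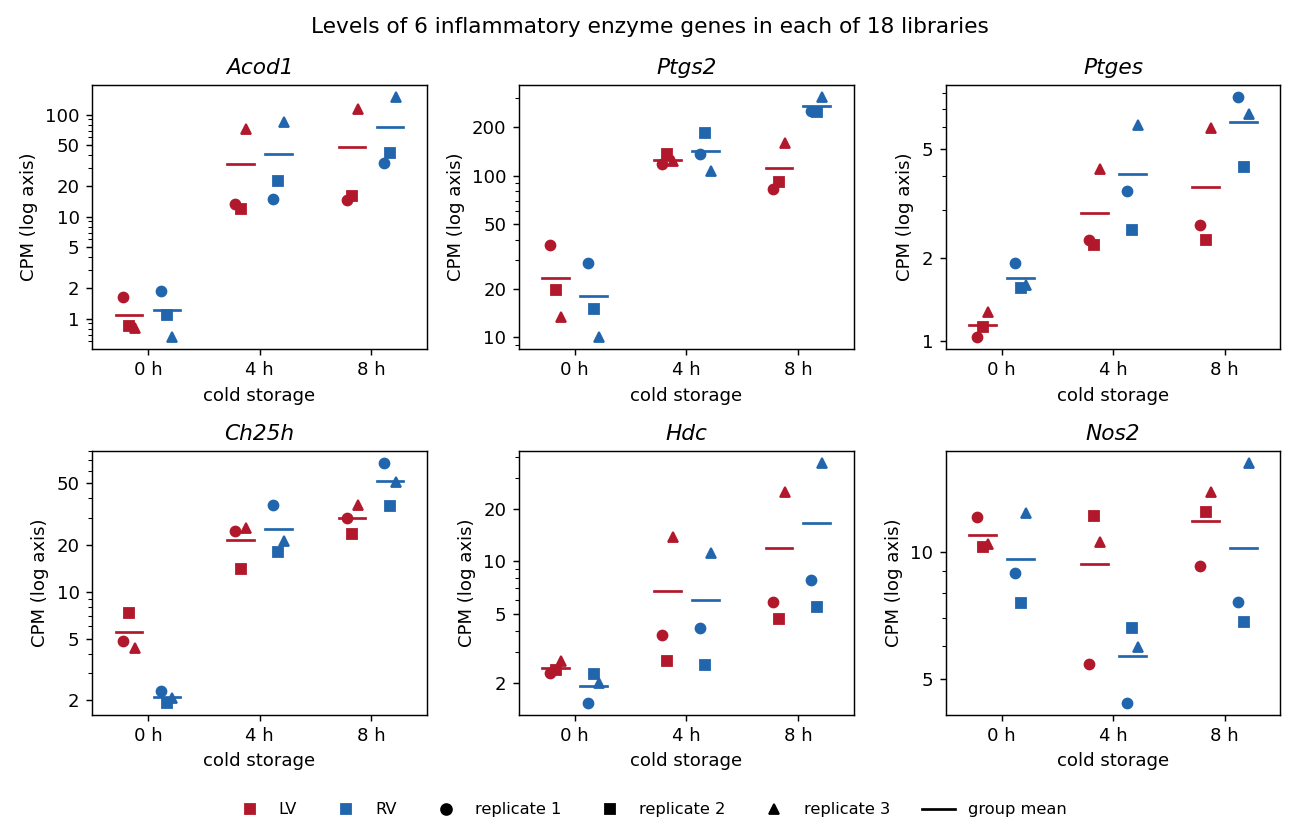
CPM on a log axis (vertical) against hours of cold storage (horizontal) for 6 of the 7 genes. Points are the 18 libraries, coloured by ventricle with a symbol for each replicate number, and bars are group means. Acod1 goes from 0.668 to 1.87 CPM at 0 h to 11.9 CPM or more in every stored library, with replicate 3 highest in each stored group, while Nos2 stays between 4.41 and 16.3 CPM.

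The replicate 3 libraries at 4 and 8 h also differed from most others in a sex-linked gene. Ddx3y, which lies on the Y chromosome, was at 1.47 to 2.47 CPM in these 4 libraries and in both 0 h replicate 2 libraries, and at 60.5 to 117 CPM in the other 12. Acod1 in stored replicate 3 was 3.93 to 7.42 times the mean of replicates 1 and 2 of its group, whereas the 0 h libraries low in Ddx3y held 0.848 and 1.08 CPM, within the range of the other 0 h libraries. Without the 6 libraries low in Ddx3y, the log2 fold change of Acod1 was 3.34 ± 0.29 and 3.62 ± 0.30 in the LV at 4 and 8 h, and 3.86 ± 0.41 and 4.90 ± 0.42 in the RV. The part of sex, or of any other property of these hearts, in the Acod1 level was not tested.

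Of the prostaglandin enzymes, Ptgs2 was the one without a high replicate 3 at 4 h. It was 37.2, 19.6 and 13.3 CPM in the LV and 28.9, 15.0 and 10.1 CPM in the RV at 0 h. At 4 h it was 118, 136 and 123 CPM in the LV and 137, 184 and 108 CPM in the RV. At 8 h it was 82.9, 91.5 and 158 CPM in the LV and 252, 248 and 307 CPM in the RV. Stored and unstored libraries did not overlap in either ventricle, again beside 12.5% and 14.5% of all genes in the LV at 4 and 8 h and 15.3% and 18.2% in the RV. At 8 h every RV library was above every LV library, as for 5.23% of all genes. The log2 fold change was 2.44 ± 0.37 at 4 h and 2.26 ± 0.37 at 8 h in the LV, against 2.999 ± 0.38 and 3.94 ± 0.39 in the RV.

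Ptges, the next enzyme toward prostaglandin E2, was a low transcript that was also higher after storage in both ventricles. It lay between 1.03 and 1.27 CPM in the LV and 1.56 and 1.93 CPM in the RV at 0 h. At 4 h it was 2.32, 2.23 and 4.23 CPM in the LV and 3.52, 2.54 and 6.14 CPM in the RV. At 8 h it was 2.63, 2.33 and 5.96 CPM in the LV and 7.74, 4.28 and 6.73 CPM in the RV. The stored libraries were above the 0 h libraries in both ventricles, beside the same shares of all genes as for Ptgs2. The log2 fold changes were 1.36 ± 0.40 and 1.67 ± 0.41 in the LV at 4 and 8 h, and 1.27 ± 0.35 and 1.91 ± 0.35 in the RV. With offsets for the length of the transcripts in each library (DESeq2) the LV values were 2.02 ± 0.48 and 2.54 ± 0.48. Without the libraries low in Ddx3y the edgeR values were 0.996 ± 0.28 and 1.12 ± 0.28 in the LV and 0.78 ± 0.35 and 1.78 ± 0.35 in the RV. Of these, the value in the RV at 8 h alone was past the thresholds given below. Ptges shares 380 bases on its own strand with a processed pseudogene, Gm13400, and how reads were split between them is uncertain.

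Ch25h, like Ptgs2 and Hdc, was higher in the LV in every same-numbered pair at 0 h and higher in the RV in every pair at 8 h. At 0 h it was 4.83, 7.29 and 4.34 CPM in the LV and 2.31, 1.93 and 2.07 CPM in the RV, with no overlap. At 4 h the LV held 24.6, 14.1 and 25.9 CPM and the RV 36.3, 17.99 and 21.3 CPM. At 8 h the LV held 30.0, 23.5 and 36.3 CPM and the RV 67.6, 35.8 and 51.1 CPM. The log2 fold change was 1.98 ± 0.29 and 2.46 ± 0.29 in the LV at 4 and 8 h, against 3.58 ± 0.33 and 4.64 ± 0.34 in the RV. An opposite-strand lncRNA, Gm26902, shares 357 bases with Ch25h. The default Kallisto settings that the methods state do not use strand, so reads from the 2 cannot be told apart there.

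Hdc, the histamine-forming enzyme, repeated the replicate pattern of Acod1. It was 2.28, 2.37 and 2.67 CPM in the LV and 1.54, 2.24 and 2.003 CPM in the RV at 0 h. At 4 h the values were 3.77, 2.68 and 13.7 CPM in the LV and 4.14, 2.54 and 11.2 CPM in the RV. At 8 h they were 5.82, 4.69 and 25.1 CPM in the LV and 7.84, 5.47 and 36.9 CPM in the RV. Replicate 3 was 3.36 to 5.54 times the mean of the other 2 in the stored groups, and all stored libraries were above the 0 h ones, again beside 12.5% to 18.2% of all genes. The log2 fold change was 1.47 ± 0.75 and 2.28 ± 0.76 in the LV at 4 and 8 h and 1.64 ± 0.78 and 3.17 ± 0.80 in the RV. Without the libraries low in Ddx3y these values were 0.40 ± 0.26, 1.10 ± 0.26, 0.91 ± 0.34 and 1.91 ± 0.34. Transcript Hdc-204, a retained intron, took 12.9% of the gene's counts.

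The arginine enzymes gave a pair of contrasts. Nos2, the inducible nitric oxide synthase, was 12.1, 10.3 and 10.4 CPM in the LV and 8.95, 7.59 and 12.4 CPM in the RV at 0 h. Stored libraries ranged from 5.43 to 13.9 CPM in the LV and from 4.41 to 16.3 CPM in the RV. All 3 RV libraries at 4 h, at 4.41, 6.64 and 5.97 CPM, were below all 3 at 0 h, as for 16.3% of all genes, and otherwise the stored and unstored groups overlapped. The log2 fold changes were -0.22 ± 0.27 and 0.13 ± 0.27 in the LV at 4 and 8 h and -0.77 ± 0.36 and 0.12 ± 0.36 in the RV. Without the libraries low in Ddx3y they were -0.35 ± 0.35 and -0.05 ± 0.35 in the LV and -0.97 ± 0.27 and -0.56 ± 0.27 in the RV. Nos2 was then past the thresholds as lower in the RV at 4 h.

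Arg2 was barely detected. Its estimated counts were 0, 0 and 0 in the LV and 1, 0 and 1 in the RV at 0 h, 3, 3 and 3 in the LV and 7, 5 and 6 in the RV at 4 h, and 7, 6 and 1 in the LV and 12, 3 and 12 in the RV at 8 h. Set against 3 counts over the 0 h LV group, a limit for a count of 0, its share of all counts was 3.40-fold higher at 4 h and 5.65-fold higher at 8 h. These 2 ratios take the stored counts as exact, so they are not lower limits. In the RV the ratio was 7.97 at 4 h (95% exact interval 1.91 to 70.9) and 13.8 at 8 h (3.47 to 120), intervals that cover counting error only. Arg2 did not pass the filter on low counts, so 6 of the 7 genes were in the fits, and it overlaps Vti1b by 285 bases and Gm48780 by 997 bases on the opposite strand, where reads cannot be told apart either.

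Per transcript length, as TPM, the mean of Acod1 ranked below those of Ptgs2, Ch25h, Nos2 and Hdc at 0 h in both ventricles, and below those of Ptgs2 and Ch25h alone at 8 h. At 0 h in the LV, Ptgs2 at 6.63 ± 3.35 (SD, n = 3) and Ch25h at 5.87 ± 1.99 were highest and overlapped, followed by Nos2 at 3.75 ± 0.26, Hdc at 1.32 ± 0.15, Acod1 at 0.545 ± 0.218 and Ptges at 0.491 ± 0.172. Nos2 also overlapped Ptgs2, and Acod1 overlapped Ptges. At 0 h in the RV the levels were 5.32 ± 3.18 for Ptgs2, 3.28 ± 0.54 for Nos2, 2.24 ± 0.33 for Ch25h, 1.07 ± 0.37 for Hdc, 1.03 ± 0.30 for Ptges and 0.626 ± 0.352 for Acod1. The last 3 overlapped, and Ptgs2 overlapped both Nos2 and Ch25h. At 8 h in the LV they were 26.03 ± 8.07 for Ptgs2, 25.6 ± 4.59 for Ch25h, 18.7 ± 21.03 for Acod1, 5.99 ± 5.95 for Hdc, 3.19 ± 0.48 for Nos2 and 2.21 ± 1.11 for Ptges. The range of Acod1 overlapped those of Ptgs2, Ch25h and Hdc. Ptgs2 and Ch25h overlapped each other, as did Hdc, Nos2 and Ptges. At 8 h in the RV, Ptgs2 at 60.7 ± 4.26 was above Ch25h at 42.8 ± 13.8 by their means, although the highest Ch25h library, 57.9, was above the lowest Ptgs2 library, 57.7. Acod1 was at 28.9 ± 23.2, Hdc at 8.12 ± 8.41, Ptges at 2.92 ± 0.56, Nos2 at 2.66 ± 1.19 and Arg2 at 0.248 ± 0.122. The range of Acod1 overlapped those of Ch25h and Hdc, and those of Hdc, Ptges and Nos2 overlapped.

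**Figure D2:**
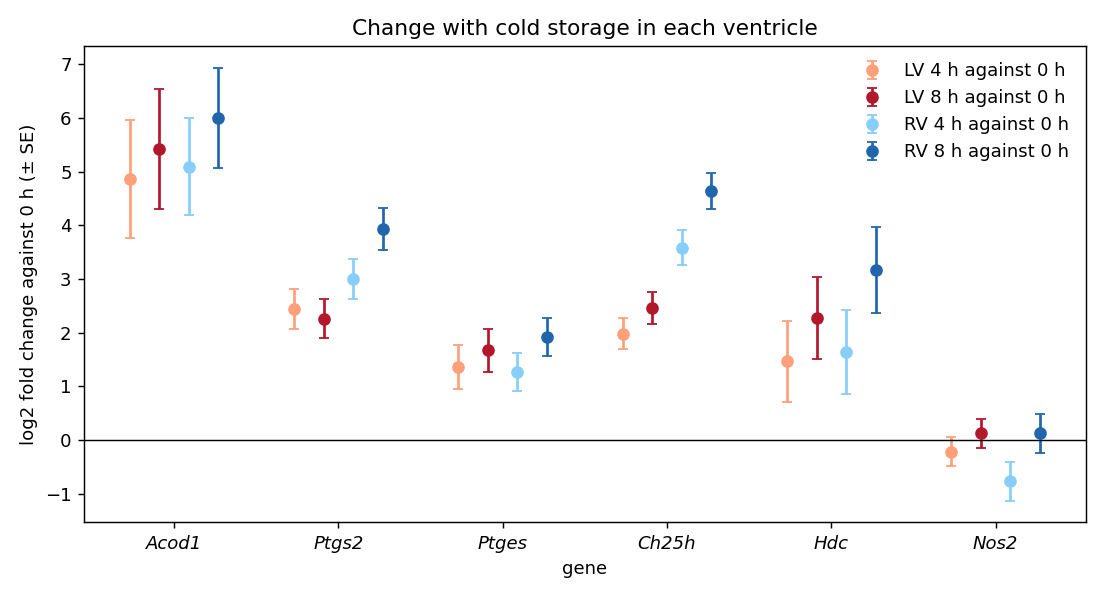
Log2 fold change against 0 h (vertical, edgeR, ± SE) for 6 genes (horizontal), with a point for each ventricle and storage time. Ch25h and Ptgs2 at 8 h have their highest values in the RV, 4.64 and 3.94 against 2.46 and 2.26 in the LV, while Acod1 has the widest errors and Nos2 lies between -0.77 and 0.13.

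By adjusted p under 0.1 and a fold above 1.5 (edgeR, adjusted over all genes tested), 3 of the 6 genes in the fit were past the thresholds and higher in the LV at 4 h, where 2.40% of all genes were, and 4 at 8 h, where 5.46% were. In the RV, 4 were at 4 h, beside 6.17% of all genes, and 5 at 8 h, beside 13% of all genes. These counts follow from the choice of the genes. Acod1, Ptgs2 and Ch25h were in all 4 counts, Ptges was missing from the LV at 4 h, Hdc was in the RV at 8 h alone, and Nos2 was in none. Leaving out single libraries moved the count of the 6 to between 1 and 4 in the LV at 4 h, 1 and 5 in the LV at 8 h, 3 and 6 in the RV at 4 h and 4 and 5 in the RV at 8 h. Arg2, which passed the filter in some of these smaller fits, was past the thresholds as well in 1 of 9 fits in the RV at 4 h and in 7 of 9 at 8 h. In the LV, Acod1 missed at 4 h without any 1 of the 3 libraries at 0 h or without replicate 1 or 3 at 4 h, and at 8 h without replicate 2 or 3 at 0 h, with log2 values of 3.48 to 5.29. Ptgs2 missed in the LV at both times without 0 h replicate 2 (2.33 and 2.15), Ch25h at 4 h without 0 h replicate 3 (1.84), and Ptges at 8 h without any 1 of the 0 h libraries or 8 h replicate 3 (1.13 to 1.76). In the RV, Ptges missed at 4 h without any 1 of the 0 h libraries or 4 h replicate 1 or 3 (0.84 to 1.37), and Hdc at 8 h without 0 h replicate 2 or 3 (3.27 and 3.21). Without RV 8 h replicate 3, Hdc and, as the one lower gene, Nos2 passed at 4 h, at 1.63 and -0.77. No gene past the thresholds changed direction in these fits.

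Between 4 and 8 h, none of the 6 was past the thresholds in either ventricle (edgeR), and 0% of all genes were in either direction. This comparison is made of storage changes that were known when the genes were chosen, so its p-values are descriptive. An unadjusted p under 0.05 was held by 1180 genes in the LV and 961 in the RV. At an unadjusted p under 0.05 there were 0 of 6 in the LV and 3 in the RV, namely Ch25h, Nos2 and Ptgs2, each higher at 8 h, and DESeq2 called 0 of the 7 genes in both ventricles. The RV log2 differences were 1.05 ± 0.29 for Ch25h, 0.94 ± 0.35 for Ptgs2 and 0.89 ± 0.36 for Nos2, all with an adjusted p of 0.599 (edgeR). Ptgs2 and Nos2 did not overlap between 4 and 8 h in the RV, as for 5.29% of all genes in that direction.

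The study set the ventricles side by side, and the main fit of LV against RV passed none of the 6 genes at 0, 4 or 8 h (edgeR). Of all genes it passed 0.0729% as higher and 0.0861% as lower in the LV at 0 h, 0% and 0.0133% at 4 h, and 0.0133% and 0.0199% at 8 h. At an unadjusted p under 0.05 it gave Ch25h at 0 h, Nos2 at 4 h, and Ch25h, Ptges and Ptgs2 at 8 h. DESeq2 called Ch25h at 0 h, none of the 7 genes at 4 h and Ptgs2 at 8 h. Shares of all genes at that p or under DESeq2 are not given here, so nothing is read from these names. In all 9 same-numbered pairs of an LV and an RV library, the departures of the genes from the group means were correlated, at 0.325 to 0.697, so the pair was also fitted as a block. The labels do not say that same-numbered libraries came from one heart. Within a ventricle, same-numbered libraries of 4 and 8 h also correlated, at 0.327 to 0.568, so the correlation does not show a shared heart. Ddx3y was low in the same replicate number of both ventricles at each storage time. What the number stands for was not tested. In the paired fit, 4 of the 6 genes were lower in the LV at 8 h, Acod1, Ptgs2, Ptges and Ch25h, where 6.53% of all genes were. There, 1 gene, Ch25h, was higher in the LV at 0 h, where 0.835% were.

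At 8 h, the RV excess of Ptgs2 was 3.04, 2.71 and 1.94 times the LV level in the 3 pairs. The paired log2 difference, LV minus RV, was -1.35 ± 0.13 (edgeR adjusted p = 0.0002371), while the unpaired one was -1.30 ± 0.38 (adjusted p = 0.279). For Acod1 the RV was 2.33, 2.62 and 1.31 times the LV, with a paired difference of -0.99 ± 0.17 (edgeR adjusted p = 0.002631) and an unpaired one of -0.67 ± 0.89 (adjusted p = 0.799). For Ptges the RV was 2.94, 1.84 and 1.13 times the LV, and the paired difference was -0.88 ± 0.22 (edgeR adjusted p = 0.0152), against an unpaired -0.82 ± 0.38 (adjusted p = 0.443), or -0.46 ± 0.42 with length offsets in DESeq2. At 0 h, every LV library of Ptges was already below every RV library, as for 4.84% of all genes. With length offsets, the 0 h value was -1.11 ± 0.44. The Ptges difference in the 8 h change did not pass in the paired fit, at -0.29 ± 0.35 (edgeR adjusted p = 0.665). For Ch25h the RV was 2.25, 1.52 and 1.41 times the LV, and the paired difference was -0.78 ± 0.17 (edgeR adjusted p = 0.008126), against an unpaired -0.81 ± 0.30 (adjusted p = 0.337). Hdc was also higher in the RV in 3 of 3 pairs, with a paired difference of -0.45 ± 0.11 (adjusted p = 0.0145) that was under the fold threshold. In all 5 genes the LV lay below the RV in every pair, as for 22.6% of all genes, and in Nos2 the LV was higher in 2 of 3 pairs. At 4 h, Nos2 was at 0.67 ± 0.21 in the paired fit (edgeR adjusted p = 0.115) and passed only without 8 h replicate 2 or 3.

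**Figure D3:**
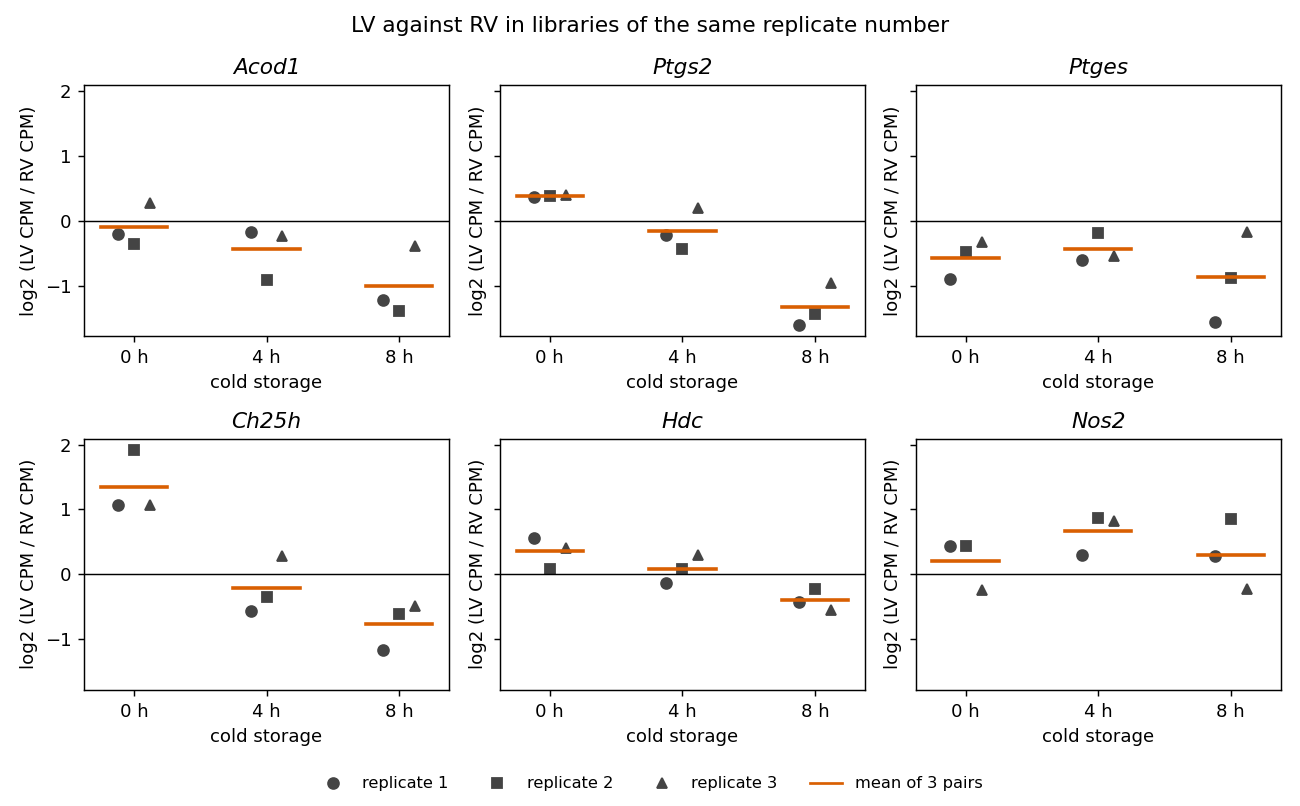
Log2 ratio of LV to RV CPM (vertical) in libraries of the same replicate number, by hours of storage (horizontal), for 6 genes. Points are the 3 pairs at each time, bars their means, and 0 marks equal levels. Ptgs2 and Ch25h lie above 0 in all pairs at 0 h and below 0 in all pairs at 8 h.

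Ch25h at 0 h had an LV level above the RV level in 3 of 3 pairs, as did 23.6% of all genes. Its paired difference was 1.33 ± 0.24 (edgeR adjusted p = 0.0196) and its unpaired one 1.36 ± 0.33 (adjusted p = 0.254), and 5.31% of all genes had every LV library above every RV library at 0 h. Without 0 h replicate 2 the paired difference was 1.05 and missed the threshold (edgeR adjusted p = 0.154).

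The change with storage differed between the ventricles for 3 genes at 8 h in the paired fit, each with an LV change below the RV change, as called in 4.72% of all genes. This contrast is made of the storage changes that were known when the genes were chosen, so its p-values are descriptive. The differences, LV change minus RV change on the log2 scale, were -2.11 ± 0.30 for Ch25h (edgeR adjusted p = 0.002431), -1.72 ± 0.19 for Ptgs2 (adjusted p = 0.00131) and -0.79 ± 0.18 for Hdc (adjusted p = 0.025). At 4 h, Ch25h alone passed, at -1.55 ± 0.30 (adjusted p = 0.09615), where 0.265% of all genes did in that direction. The unpaired fit passed none of them (edgeR), beside 0% of all genes in either direction. At an unadjusted p under 0.05 it held 1 gene at 4 h and 2 at 8 h, and DESeq2 called 0 at 4 h and Ch25h at 8 h. No share of all genes is given for these either, so nothing is read from them. Leaving out 1 same-numbered pair at a time, the 8 h difference stayed past the thresholds in 9 of 9 paired fits for Ch25h and Ptgs2. For Hdc it did so in 8 of 9, and the 4 h difference of Ch25h did so in 3 of 9. For LV against RV at 8 h, the same 9 fits kept Acod1 and Ptgs2 past the thresholds in 9 and Ptges and Ch25h in 8. Without 8 h replicate 1, Ptges was at -0.50 and Ch25h at -0.56, and neither passed, and without 0 h replicate 1 the 8 h difference of Hdc was -0.68 and did not pass. The 4 h difference of Ch25h did not pass without any 1 pair at 0 h, 4 h replicate 1 or 2, or 8 h replicate 2, at -1.26 to -1.70, and the 8 h difference of Acod1 passed only without 8 h replicate 3, at -1.17, or without the libraries low in Ddx3y. Without the libraries low in Ddx3y, the paired 8 h values were -1.32 ± 0.15 for Acod1, -1.54 ± 0.08 for Ptgs2, -1.26 ± 0.22 for Ptges and -0.92 ± 0.12 for Ch25h.

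The cell types of the libraries were read from marker genes. The 6 cardiomyocyte markers summed to 28370 to 67710 CPM over the 18 libraries. At 0 h they were at 54690 to 67710 in the LV and 56230 to 66500 in the RV. At 8 h they were at 42660 to 48170 and 28370 to 53490, with no overlap with 0 h. Of all genes, 14.3% in the LV and 18% in the RV had every 8 h library below every 0 h library. Mitochondrial genes took 24.07% to 28.3% of the counts in the LV and 22.7% to 32.6% in the RV at 0 h, 24.9% to 26.4% and 26.1% to 27.7% at 4 h, and 31.98% to 34.4% and 33.3% to 34.2% at 8 h. The part of this shift in the enzyme levels was not tested. The 8 macrophage markers summed to 207 to 351 CPM in the LV at 0 h and 258 to 441 at 8 h, and to 262 to 425 and 300.2 to 582 in the RV, where 3 of the 8 rose at 8 h, beside 13% of all genes. The 8 neutrophil markers summed to 1.98 to 2.39 CPM at 0 h and 10.7 to 20.2 at 8 h in the LV, and to 1.76 to 3.37 and 12.6 to 20.04 in the RV, mostly through Csf3r, while Ly6g, a defining marker, was at 0 in 17 of 18 libraries. The 7 mast cell markers, relevant to Hdc, summed to 7.53 to 9.88 and 7.72 to 9.28 CPM in the LV at 0 and 8 h and to 8.64 to 9.98 and 9.09 to 19.9 in the RV, with Ms4a2 at 0 in 14 libraries. By replicate number at 8 h, the 5 fibroblast markers summed to 791, 580 and 647 CPM in the LV. In the RV they summed to 1150, 644 and 749. At 0 h they spanned 499 to 554 in the LV and 616 to 664 in the RV. The 3 smooth muscle markers at 8 h summed to 223, 118.5 and 129 in the LV and 252, 165 and 223 in the RV. The 6 endothelial markers at 8 h spanned 633 to 864 in the LV and 570 to 822 in the RV. The 3 atrial ones spanned 40.8 to 118 and 40.5 to 246. In bulk tissue, fewer cells of a type and less RNA per cell cannot be told apart, and the part of these markers in the enzyme levels was not tested.

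The genes around each enzyme were taken from fixed pathway lists. Of 11 transcription factors known for inducing inflammatory genes, 6 rose at 4 h and 6 at 8 h in the LV, and 8 and 10 in the RV, with none lower (edgeR). Of all genes, 2.40%, 5.46%, 6.17% and 13% were higher and 0.398%, 1.26%, 3.91% and 5.26% lower in LV 4 h, LV 8 h, RV 4 h and RV 8 h. The median log2 fold changes of the 11 were 1.25, 1.33, 1.53 and 1.79, and those of all genes lay between -0.07 and 0.0034. Cebpd, a stress-induced C/EBP factor, rose by a log2 of 2.28 ± 0.21 in the LV and 2.78 ± 0.31 in the RV at 8 h. Nfkb1 rose by 1.69 ± 0.30 and 2.35 ± 0.27, Relb, a subunit of the non-canonical pathway, by 1.74 ± 0.32 and 2.37 ± 0.41, Nfkb2 by 1.33 ± 0.31 and 1.91 ± 0.32, and Irf1 by 1.73 ± 0.45 and 2.18 ± 0.60.

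Of the genes that make, carry, answer or clear prostaglandins, Hpgd alone passed in the LV, as lower, and genes passed in both directions in the RV. Of 20, 0 rose and 1 fell in the LV at both times. Of all genes in the LV, 2.40% rose and 0.398% fell at 4 h, and 5.46% and 1.26% at 8 h. In the RV 1 rose and 3 fell at 4 h, beside 6.17% and 3.91% of all genes. At 8 h there 4 rose and 3 fell, beside 13% and 5.26%. Of the 20 genes, 17 were tested in the LV and 18 in the RV. Their median log2 fold changes were 0.11, 0.10, 0.20 and 0.53 in LV 4 h, LV 8 h, RV 4 h and RV 8 h. Hpgd, which inactivates prostaglandins, fell in all 4 comparisons, with log2 values of -1.54 ± 0.35 and -1.62 ± 0.35 in the LV and -1.59 ± 0.37 and -1.56 ± 0.37 in the RV. At 8 h in the RV, Slco2a1, a prostaglandin transporter, rose by 1.55 ± 0.37 and the EP2 receptor Ptger2 by 2.18 ± 0.67, while the thromboxane receptor Tbxa2r was at -1.64 ± 0.47 and the F receptor Ptgfr at -1.19 ± 0.37, both lower.

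Among 22 genes of nitric oxide and arginine, 1 rose and 0 fell at 4 h and 4 and 0 at 8 h in the LV, and 5 and 2 at 4 h and 5 and 1 at 8 h in the RV, with 21 tested in the LV and 20 in the RV and medians between 0.001 and 0.22. Beside them, 2.40% and 5.46% of all genes rose and 0.398% and 1.26% fell in the LV at 4 and 8 h. In the RV 6.17% and 13% rose and 3.91% and 5.26% fell. Beside Nos2, which did not pass, Slc7a2, a cationic amino acid transporter, rose in all 4 comparisons, by 2.15 ± 0.50 in the LV and 2.55 ± 0.42 in the RV at 8 h. Gch1, which makes the tetrahydrobiopterin cofactor, rose by 1.82 ± 0.52 and 2.52 ± 0.46 at 8 h, and Odc1, which starts polyamine synthesis from ornithine, by 0.99 ± 0.26 and 2.12 ± 0.31. Azin1, which protects the Odc1 protein, rose by 1.42 ± 0.26 in the RV at 8 h and was 0.42 ± 0.28 in the LV, and Gucy1a1, a subunit of the nitric oxide receptor, was at -0.77 ± 0.16 in the RV, lower.

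Of 14 sterol genes around Ch25h, 0 passed in the LV at 4 h, 1 rose and 1 fell at 8 h, and in the RV 3 rose and 2 fell at 4 h and 6 rose and 1 fell at 8 h, with medians of 0.05, 0.16, 0.21 and 0.60. The shares of all genes that rose and fell were 2.40% and 0.398% in LV 4 h and 5.46% and 1.26% in LV 8 h. They were 6.17% and 3.91% in RV 4 h and 13% and 5.26% in RV 8 h. In the RV at 8 h, Sqle, an enzyme of cholesterol synthesis, rose by 1.06 ± 0.34, and Cyp7b1, which hydroxylates 25-hydroxycholesterol further, by 2.53 ± 0.86. Gpr183, the receptor for the resulting chemoattractant, fell, at -1.81 ± 0.45 in the LV and -1.76 ± 0.64 in the RV.

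The itaconate neighbours stayed close to their unstored levels at 4 h. Of 16 genes none passed in the LV or in the RV at 4 h (edgeR), and Idh2, the mitochondrial isocitrate dehydrogenase, fell at 8 h in the RV, at -0.65 ± 0.24. The medians of the 16 were -0.01 and -0.33 in the LV and 0.06 and -0.49 in the RV at 4 and 8 h. Of 8 histamine genes, 5 were tested, and the H2 receptor Hrh2 fell in the RV at both times, at -1.98 ± 0.62 and -1.99 ± 0.63. Of all genes, 3.91% and 5.26% fell in the RV at 4 and 8 h.

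**Figure D4:**
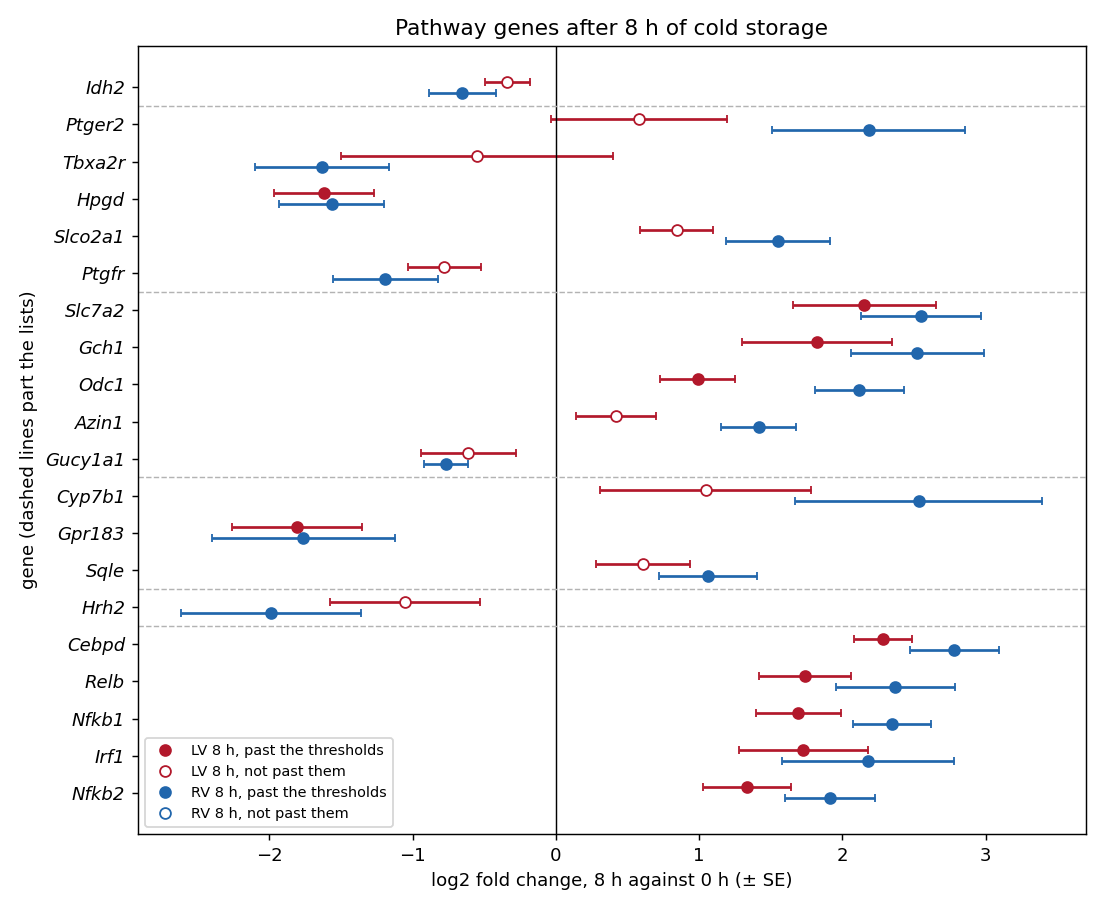
Log2 fold change at 8 h against 0 h (horizontal, edgeR, ± SE) for 20 pathway genes named by rule (vertical, lists parted by dashed lines), LV in red and RV in blue. Filled points are past adjusted p under 0.1 and a fold above 1.5. Hpgd and Gpr183 lie below 0 in both ventricles, and the transcription factors at the bottom lie above 0 in both.

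Likeness was taken as the Pearson correlation of log2 CPM over the 18 libraries, which differ in depth and fall into groups by storage time. The genes most like Acod1 among 15087 were Tnip1 at 0.992, Dennd4a at 0.991, Pfkfb3 at 0.989, Oasl1 at 0.989 and Tmem132e at 0.986. Those most like Ptgs2 were Tnfaip6 at 0.987, Olr1 at 0.984 and Fgf23 at 0.981, and those most like Ch25h were Il6, Sbno2 and Il4ra at 0.964 to 0.966. Ptges came closest to Plpp3 at 0.975, Hdc to Bst2 at 0.983, Nos2 to Hoxb2 at 0.925 and Arg2 to Ptafr at 0.912. By departures from the group means, those named for Acod1 held 0.960 to 0.988 and those for Ptgs2 0.838 to 0.8785. Those for Ch25h held 0.654 to 0.726, with Il6 at rank 380. Plpp3 held 0.899, Bst2 0.971 and Hoxb2 0.871 with their enzymes, and Ptafr held 0.371 with Arg2, at rank 1189. These are descriptions of shared pattern only.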

How the data were processed

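The authors quantified reads with Kallisto against a GRCm38 transcriptome and deposited, for each of 18 libraries, estimated counts and TPM per transcript. Their transcript lengths were used for the length offsets. Estimated counts were summed over the transcripts of each gene (GENCODE M21 names, 110203 of 111462 transcripts matched) and rounded to whole numbers. Totals were 22552581 to 46236771 per library, and 0 per-sample columns were left unused. Groups came from the labels. Genes passing filterByExpr were fitted with edgeR 4.0.16 (TMM, quasi-likelihood test, R 4.3.3), within each ventricle for storage and over all libraries for LV against RV and for the difference between them, and p-values were adjusted by Benjamini-Hochberg over all genes tested, with a threshold of 0.1 and a fold of 1.5. The replicate number of LV and RV pairs was the block of the paired fit. Within a ventricle, same-numbered libraries correlated above 0.1 in every pair in the RV but not in the LV against 0 h, and the blocked fits are given with the alternatives. Alternatives used DESeq2 1.42.0, other size factors, filters and left-out libraries. The fits were tested on simulated data. Named pathway genes were, per list, up to 5 that passed in any comparison with 0 h, largest at 8 h first, and 2 of these are not reported here. The members, lists and this rule were chosen with earlier results of these data known. Nothing in the labels says that replicates came from separate animals, so p-values measure the spread between these libraries.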

Additional observations from a re-analysis of the deposited data

Results flagged for a closer look

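In 4 cases the change with storage differed between LV and RV by the test of the difference in the paired fit (edgeR), each with an LV change below the RV change. For Ch25h the difference was -1.55 at 4 h and -2.11 at 8 h on the log2 scale, for Ptgs2 it was -1.72 at 8 h, and for Hdc it was -0.79 at 8 h. None of the 4 passed in the edgeR fit that did not pair the libraries, while DESeq2, also unpaired, called Ch25h for the 8 h difference. The storage changes behind these differences were known when the genes were chosen, so the 4 cases are descriptions.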

How the results depend on the processing

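For storage against 0 h, the number of the 7 genes past the thresholds stayed within 1.5 times of the main count under other size factors, no filter, DESeq2, DESeq2 with length offsets, the stricter threshold, all 18 libraries in 1 fit and the fit without libraries low in Ddx3y. Leaving out these libraries, or same-numbered pairs in the paired fit, was chosen after seeing the data. The genes were not the same throughout. Without the libraries low in Ddx3y, Ptges missed in LV 8 h and RV 4 h, Hdc passed in LV 8 h and Nos2 passed as lower in RV 4 h. DESeq2 gave no p for Acod1 in the LV and passed Ptges in LV 4 h, Hdc in LV 8 h and Arg2 in RV 8 h. At an adjusted p under 0.05, Acod1 missed in LV 4 h and Ptges in LV 8 h and RV 4 h, and with no filter Arg2 passed in LV 8 h, RV 4 h and RV 8 h. With the replicate block, the counts were 4 and 5 in the LV at 4 and 8 h, where Ptges and Hdc were added, beside 3.86% and 8.1% of all genes higher, and 4 and 5 in the RV, beside 8.45% and 15.5%. Same-numbered LV libraries correlated at 0.358 to 0.568 between 4 and 8 h, but at -0.018 to 0.261 against 0 h. In the RV every pair correlated above 0.1, and the block changed no call of the 6 genes. Pairing LV with RV moved the counts of LV against RV from 0 to 1 at 0 h and from 0 to 4 at 8 h. In the same directions, 0.835% and 6.53% of all genes were called. Those of the difference in change moved from 0 to 1 at 4 h and from 0 to 3 at 8 h, beside 0.265% and 4.72%. Without the libraries low in Ddx3y, the paired counts were 1, 4, 2 and 4. DESeq2, with or without length offsets, gave 1 at 0 h, 1 at 8 h and 1 for the 8 h difference. Shares of all genes are not given for the fit without these libraries or for DESeq2, so nothing is read from those counts. Leaving out single libraries or same-numbered pairs gave 0 to 1 for LV against RV at 0 h and at 4 h and 0 to 4 at 8 h. It gave 0 to 1 for the 4 h difference and 0 to 4 for the 8 h difference. The higher values came from paired fits. For 8 against 4 h it gave 0 throughout. Pathway genes past the thresholds numbered 8, 13, 25 and 32 (LV 4 h, LV 8 h, RV 4 h, RV 8 h). At an adjusted p under 0.05 the first 3 were 3, 5 and 16; without the libraries low in Ddx3y, LV 4 h, LV 8 h and RV 8 h gave 3, 3 and 18; DESeq2 gave 14 and, with length offsets, 16 in LV 4 h. Leaving out single libraries gave 1 to 13, 1 to 23, 7 to 27 and 19 to 49. The cause of these shifts was not tested. No storage direction of a called gene was reversed. Having 3 libraries per group limits every estimate, and genes near 1 CPM rest on few counts.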

Other observations

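Taken as departures from the group means, which removes storage and ventricle, the enzymes fell into different company. Over the 18 libraries the departures of Acod1 correlated with those of Hdc at 0.865 and of Ptges at 0.775, and those of Ptges and Hdc at 0.821, while Ptgs2 and Ch25h, at 0.920 over the levels themselves, had 0.086 between their departures. These are descriptions over libraries that differ in depth and may share hearts. Nos2 counts came from 2 coding transcripts, Nos2-201 with 58.5% and Nos2-203 with 41.3%, and Ptges-202 held 88.4% of the Ptges counts.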
